A study of Rattus norvegicus with 12 samples.

Results

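The genes described are those of 2 vasoactive peptide systems, endothelin and renin-angiotensin, in rat lung after brain death. They were chosen by name, and every probe set of the array whose annotated symbol was one of 8 listed genes was taken. Of the 8, 6 genes were measured, with 9 probe sets between them, out of 14217 genes on the array with 1 symbol. The genes measured were Edn1, Ece1, Agt, Ace, Agtr1a and Agtr2. The endothelin receptor genes Ednra and Ednrb had no probe set under their symbols in the annotation used and were not analysed here.

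Lung RNA came from male wild type Sprague Dawley rats, on 12 arrays in 4 groups of 3. The sham group had a sham operation, and the BD group had brain death, brought about with a balloon catheter inflated outside the dura. SEW animals had SEW-2871 at 0.1 mg/kg into a vein, and BD/SEW animals had the same dose 15 min after brain death. SEW-2871 is an agonist of S1P1, a receptor for sphingosine 1-phosphate on endothelial cells and lymphocytes. The labels used here give no age, no time between brain death and sampling, and no statement that SEW animals were operated on or that sham animals had the vehicle. The numbered arrays are not tied to separate animals in the labels, so p-values measure the spread between these samples.

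Endothelin-1 is a peptide that constricts blood vessels, and endothelial cells are a main source of it in lung. It is made from an inactive precursor by endothelin converting enzyme and acts on 2 receptors. In the renin-angiotensin system, angiotensinogen is cut by renin to angiotensin I and then by angiotensin converting enzyme to angiotensin II, which constricts vessels through the AT1 receptor and is opposed by the AT2 receptor. The lung capillary endothelium is known for its high content of angiotensin converting enzyme.

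All values are log2 probe set values as the authors deposited them. Marker genes of lung epithelium averaged 12.76 to 13.09 on all 12 arrays, so each array carried a lung signal. Some arrays also carried transcripts of fat and heart muscle. The mean of 12 measured adipocyte markers read 8.6 to 9.56 on sham arrays, 9.06 on BD replicate 2 and 6.34 to 7.19 on the other 8. The mean of 18 cardiac muscle markers read 9.64 to 10.66, 11.63 and 5.89 to 8.22 on the same 3 sets of arrays. The lowest array weights, 0.25 and 0.32, fell to sham replicate 3 and SEW replicate 2.

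Brain death with the agonist was set against the agonist alone in a comparison of the BD/SEW and SEW groups, and there Edn1, Ece1, Ace and Agtr1a were each lower in all BD/SEW arrays than in all SEW arrays. The promoters of these 4 genes are shown for that lack of overlap, which 31.8% of all genes had there in either direction. Each is the 250 bases before the annotated start in RefSeq, build GRCr8, written 5′ to 3′ in the direction of the gene. The promoters lie at chr17:22666688-22666937 (Edn1, minus strand), chr5:155360781-155361030 (Ece1, plus strand), chr10:91409879-91410128 (Ace, plus strand) and chr17:34435433-34435682 (Agtr1a, minus strand). Capitals mark every match to any of 7 motifs.
Edn1: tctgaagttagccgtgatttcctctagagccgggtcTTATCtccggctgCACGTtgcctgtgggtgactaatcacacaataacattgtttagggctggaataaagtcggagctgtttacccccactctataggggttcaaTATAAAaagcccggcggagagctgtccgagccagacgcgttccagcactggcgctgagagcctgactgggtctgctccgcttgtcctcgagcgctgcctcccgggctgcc
Ece1: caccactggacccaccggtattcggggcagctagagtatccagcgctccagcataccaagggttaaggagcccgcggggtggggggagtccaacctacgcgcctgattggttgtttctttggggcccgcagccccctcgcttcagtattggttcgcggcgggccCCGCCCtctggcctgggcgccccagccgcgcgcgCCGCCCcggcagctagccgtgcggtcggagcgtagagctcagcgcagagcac
Ace: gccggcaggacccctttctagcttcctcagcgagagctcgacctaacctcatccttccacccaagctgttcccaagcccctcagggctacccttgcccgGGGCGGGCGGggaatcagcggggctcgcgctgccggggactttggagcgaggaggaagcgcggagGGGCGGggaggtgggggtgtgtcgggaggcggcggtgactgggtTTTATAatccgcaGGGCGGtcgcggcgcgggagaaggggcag
Agtr1a: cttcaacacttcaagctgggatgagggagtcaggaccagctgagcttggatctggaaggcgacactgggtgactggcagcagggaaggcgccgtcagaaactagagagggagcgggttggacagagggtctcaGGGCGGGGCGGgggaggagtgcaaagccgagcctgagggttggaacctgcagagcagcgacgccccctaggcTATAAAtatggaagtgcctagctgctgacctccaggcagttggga

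All motifs were searched on both strands. The TATA box was read as TATAAA. The site of AP-1 factors was read as TGANTCA and that of GATA factors as GATAA. The cyclic AMP response element was read as TGACGTCA and the GC box as GGGCGG. The core of the hypoxia response element was read as ACGTG, and the NF-kappa-B motif was searched too. Edn1 had TATAAA from -110 to -105, counted from the annotated start, together with a GATAA match on the other strand and an ACGTG match on the other strand. Ece1 had 2 GC boxes and no TATAAA. Ace had 4 GC boxes, 2 of which overlapped, and TATAAA on the other strand from -42 to -37. Agtr1a had TATAAA from -45 to -40 and 2 GC boxes that overlapped by a base. The AP-1, cyclic AMP and NF-kappa-B letters did not occur in these 4 windows. Among 27457 promoters of the same length, TATAAA occurred in 13.1%, the GC box in 32.4%, GATAA in 23.2%, ACGTG in 16.9%, AP-1 in 6.36%, the cyclic AMP element in 1.7% and NF-kappa-B in 6.41%. The GC content was 69.2% in both Ece1 and Ace, 60.8% in Agtr1a and 56.4% in Edn1, where the median promoter had 52%. These matches describe letters only, and binding was not measured.

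Edn1 encodes the precursor of endothelin-1. It read 11.33, 10.77 and 9.66 in sham, 10.34, 10.12 and 9.79 in BD, 10.75, 11.14 and 10.85 in SEW, and 10.41, 10.1 and 10.06 in BD/SEW (replicates 1 to 3). Sham replicate 3 was the lowest of all 12 arrays and sham replicate 1 the highest, so the sham group spanned the range of the other 3 groups. The group means were 10.91 ± 0.2 in SEW, 10.59 ± 0.85 in sham, 10.19 ± 0.19 in BD/SEW and 10.08 ± 0.28 in BD (log2 mean ± SD, n = 3), and the arrays of neighbours in that order overlapped.

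Ece1 encodes the membrane protease that turns the endothelin precursor into the active peptide. It read 12.39, 12.53 and 12.44 in sham, 12.05, 12.2 and 12.35 in BD, 12.91, 12.5 and 12.73 in SEW, and 12.26, 12.22 and 12.16 in BD/SEW. All 6 arrays with brain death lay below all 6 without it. Over all genes 3.72% separated these 6 and 6 arrays without overlap, and 2.32% did so with brain death lower. Of the 6 genes described, Ece1 was the 1 that did. The means were 12.71 ± 0.21 in SEW, 12.45 ± 0.07 in sham, 12.21 ± 0.05 in BD/SEW and 12.2 ± 0.15 in BD (n = 3). SEW and sham overlapped through SEW replicate 2, and BD/SEW and BD overlapped throughout.

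Agt encodes angiotensinogen, the precursor of the angiotensins, which liver and fat are known to make. It read 9.63, 8.73 and 9.01 in sham, 7.35, 8.71 and 7.4 in BD, 7.41, 7.07 and 7.27 in SEW, and 7.39, 7.12 and 7.6 in BD/SEW. The 3 sham arrays and BD replicate 2 were high and the other 8 arrays lay between 7.07 and 7.6. The group means were 9.12 ± 0.46 in sham, 7.82 ± 0.77 in BD, 7.37 ± 0.24 in BD/SEW and 7.25 ± 0.17 in SEW (n = 3), and from BD downward neighbours overlapped.

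Ace encodes angiotensin converting enzyme and had 2 probe sets. The brighter, 1387791_at, read 12.33, 12.36 and 11.3 in sham, 12.14, 11.98 and 12.33 in BD, 12.81, 12.61 and 12.6 in SEW, and 12.14, 12.21 and 11.95 in BD/SEW. All 3 SEW arrays lay above the other 9, and sham replicate 3 lay below all others. The share of all genes with SEW above the other 9 arrays was not counted. Of all genes 27.1% had no overlap between SEW and sham, and 31.8% had none between BD/SEW and SEW, in either direction. The other probe set, 1370028_at, read 11.89, 11.97 and 11.31 in sham, 11.75, 11.52 and 11.82 in BD, 12.48, 12.23 and 12.25 in SEW, and 11.76, 11.75 and 11.62 in BD/SEW. It gave the same 3 arrays as the highest and the same array as the lowest. For the brighter probe set the means were 12.67 ± 0.12 in SEW, 12.15 ± 0.18 in BD, 12.1 ± 0.13 in BD/SEW and 12 ± 0.6 in sham (n = 3), and the last 3 overlapped with each other.

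Agtr1a encodes a form of the AT1 receptor, through which angiotensin II constricts vessels. Its brighter probe set, 1384240_at, read 10.92, 11.31 and 10.85 in sham, 10.47, 10.66 and 10.64 in BD, 11.02, 10.97 and 11.12 in SEW, and 10.87, 10.39 and 10.45 in BD/SEW. All arrays without brain death read 10.85 or more, and of those with brain death only BD/SEW replicate 1 reached that range. The means were 11.04 ± 0.08 in SEW, 11.03 ± 0.25 in sham, 10.59 ± 0.1 in BD and 10.57 ± 0.26 in BD/SEW (n = 3). The dimmer probe set, 1369291_at, had the same order of SEW, sham, BD/SEW and BD as Edn1, with 9.73 ± 0.14, 9.27 ± 0.82, 9.03 ± 0.47 and 8.97 ± 0.18, and sham replicate 3 (8.34) was the lowest of its 12 values. The 2 probe sets thus differed in the order of the brain-death groups and in the position of sham replicate 3. Agtr1a and its near copy Agtr1b are closely related genes, so probes may be shared between them.

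Agtr2 encodes the AT2 receptor. Its brighter probe set read 5.95 to 6.25 in sham, 6.14 to 6.38 in BD, 6.04 to 6.1 in SEW and 6.14 to 6.28 in BD/SEW, and the 12 values spanned 0.43 log2 units in all. The other probe set read 4.64 to 5.05, below the lower quartile of every array (5.56 to 5.66). Signal over background was not measured, so these levels cannot be told from background here.

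**Figure D1:**
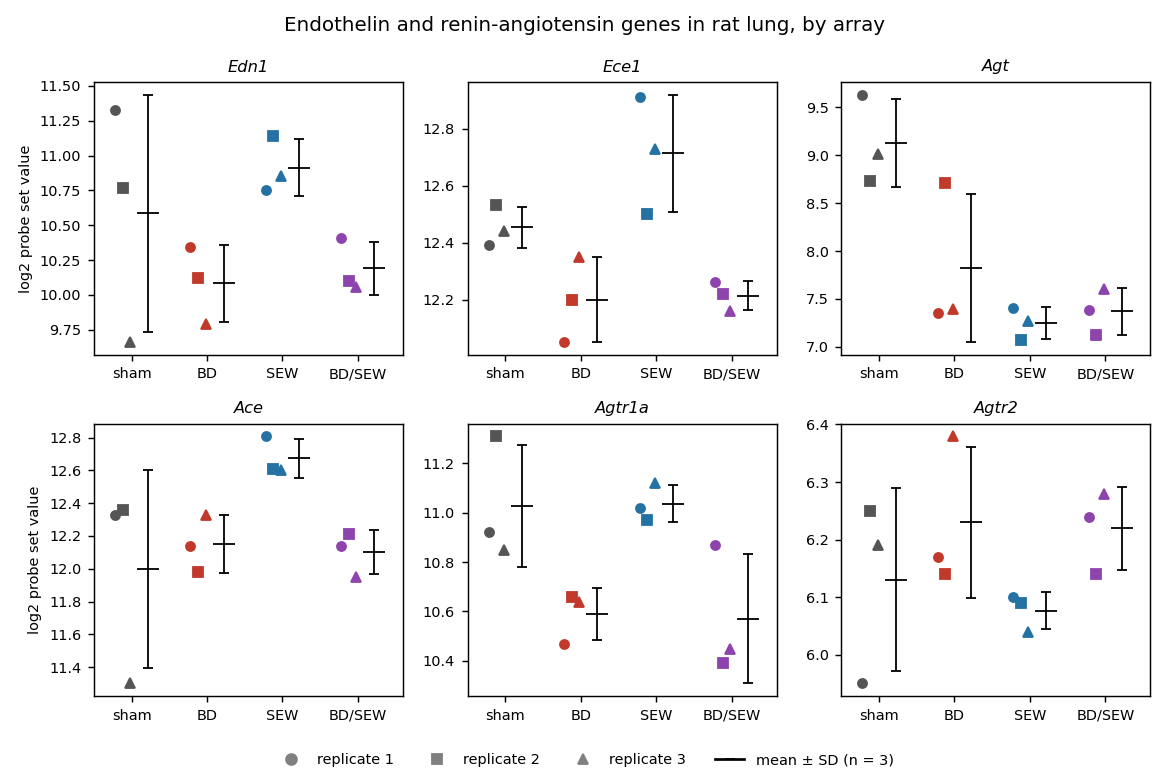
The log2 probe set value (vertical axis) of the 6 measured genes is plotted by group (horizontal axis), 1 symbol per array, with the mean ± SD of 3 arrays beside it; each panel has its own scale. Ece1 is lower on all 6 arrays with brain death (as are 2.32% of all genes). Ace is highest in the 3 SEW arrays, and the share of all genes of which this is true was not counted. Agt is high on 4 arrays, those of sham and BD replicate 2 (8.71).

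Brain death without the agonist was examined by setting BD against sham. Called genes are those with an adjusted p under 0.05 by limma, adjusted by the Benjamini-Hochberg method over 14217 genes. Of the 6 genes 0 were called, where 0.591% of all genes were (0.38% lower and 0.211% higher in BD), and 3 of the 6 had an unadjusted p under 0.05. Agt differed by -1.3 ± 0.33 log2 units (BD less sham, difference ± SE, n = 3 per group; adjusted p = 0.12 by limma), Agtr1a differed by -0.44 ± 0.15 (adjusted p = 0.26) and Ece1 by -0.25 ± 0.11 (adjusted p = 0.42). For each of these 3 every BD value lay below every sham value, and 15.7% of all genes had no overlap in either direction. For Agtr1a that held for the brighter probe set only, and the dimmer one overlapped and differed by -0.3 ± 0.34. The nearest values were 8.71 in BD and 8.73 in sham for Agt, and 12.35 in BD and 12.39 in sham for Ece1. Edn1 differed by -0.5 ± 0.33 and Ace by 0.15 ± 0.23, with intervals of -1.22 to 0.21 and -0.35 to 0.66 (95%). The median difference of the 6 genes was -0.34, against 0.0033 over all genes.

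Single arrays moved these values. Without BD replicate 2, the BD array with fat and heart transcripts, Agt differed by -1.75 with an adjusted p of 0.005 by limma (n = 2 and 3). The 2 BD arrays that remain had adipocyte means of 6.34 and 6.55, against 8.6 to 9.56 in sham. In the fit of all arrays the difference of Agt was -0.88 with the mean of the cardiac markers as a covariate (adjusted p = 0.22) and -0.43 with that of the adipocyte markers, a setting chosen after seeing the data (adjusted p = 0.58). Over all genes 0.197% and 0.0563% were called with these covariates. Without sham replicate 3, Edn1 differed by -0.97 (adjusted p = 0.083) and Ace by -0.2 in place of 0.15. The sign of the Ace difference by its brighter probe set thus rested on that array, and the other probe set differed by -0.027 ± 0.16 with all arrays. The size of the Edn1 difference rested on more than that array. It ran from -0.97 to -0.13 over the fits that each omitted a compared array.

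The agonist without brain death was examined by setting SEW against sham. Agt fell by 1.87 ± 0.33 (3.66-fold; n = 3 per group; adjusted p = 0.013 by limma), and it was the 1 gene of 6 called, where 5.84% of all genes were called, 2.43% lower and 3.4% higher. Ace was 0.68 ± 0.23 higher in SEW by its brighter probe set (adjusted p = 0.098) and 0.6 ± 0.16 higher by the other (adjusted p = 0.06 over all probe sets), and neither passed. Endothelial markers were higher in part in the same comparison: Cldn5 (0.58 ± 0.13) and Ramp2 (0.53 ± 0.13) rose, 2 of 13, and their mean was 11.74 to 11.92 in SEW and 11.57 to 11.75 in sham. Their part in the Ace difference was not tested. Ece1 differed by 0.26 ± 0.11 (adjusted p = 0.16), Edn1 by 0.33 ± 0.33 and Agtr1a by 0.01 ± 0.15. The dimmer probe set of Agtr1a differed by 0.46 ± 0.34 (adjusted p = 0.43 over all probe sets). Agt and Ace did not overlap between the groups, and 27.1% of all genes did not. Without sham replicate 3 the difference of Ace was 0.33 (adjusted p = 0.15) and that of Edn1 was -0.14, with its sign turned.

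Agt differed together with markers of several other cell types, fat and heart muscle among them. In SEW against sham, 5 of 12 adipocyte markers fell over all genes tested (median -2.35), and 1 of 18 cardiac markers fell (median -3.85), while the median of all genes was 0.017. The adipocyte mean was 8.6 to 9.56 in sham and 6.64 to 7.02 in SEW, and the cardiac mean was 9.64 to 10.66 and 5.89 to 7.55. The mean of 8 fibroblast markers was 10.52 to 10.88 in sham and 10.33 to 10.5 in SEW, and that of 13 lung epithelium markers was 12.76 to 12.87 and 12.96 to 13.09. The part of any of these cell types in the result was not tested beyond the covariates. With the cardiac mean as a covariate the difference of Agt was -1.04 (adjusted p = 0.23 by limma, n = 3 per group). With the adipocyte mean as a covariate it was -0.75 (adjusted p = 0.27). Over all genes 0.169% were called with the cardiac covariate and 0.0633% with the adipocyte covariate, against 5.84% without either. Neither marker mean overlapped between sham and SEW, so these fits cannot clearly part covariate from group. In bulk tissue, fewer cells of a type and less RNA per cell cannot be told apart. Within sham, replicate 1 had the highest adipocyte mean and the highest Agt, but replicate 3, with the lowest adipocyte mean, did not have the lowest Agt.

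**Figure D2:**
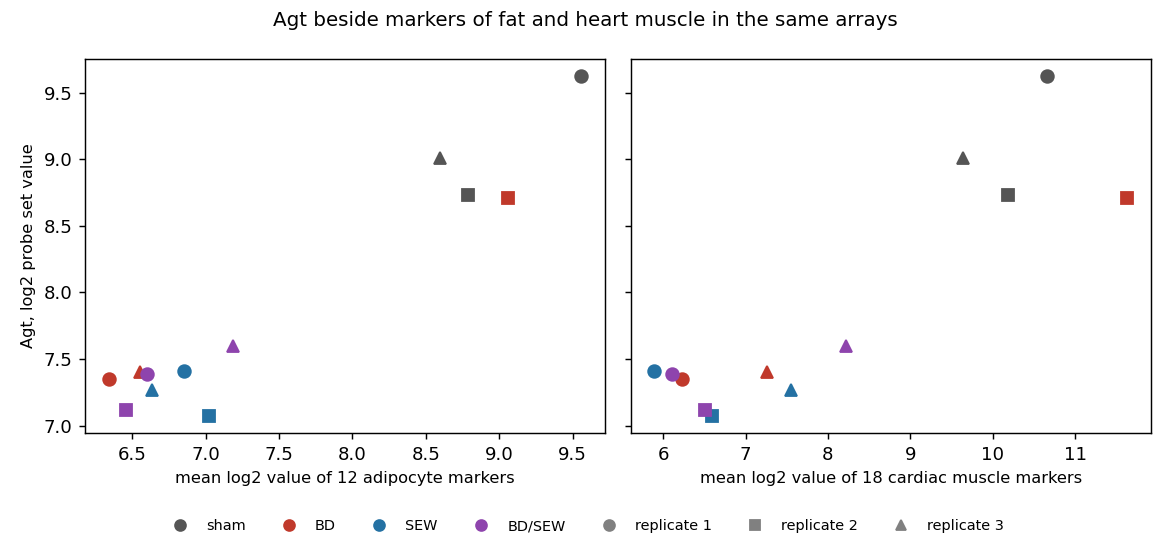
The log2 value of Agt (vertical axis) is plotted against the mean log2 value of 12 adipocyte markers (left) and 18 cardiac muscle markers (right) on the same array, 1 symbol per array, coloured by group. The 3 sham arrays and BD replicate 2 lie apart at 8.71 or more, and the other 8 arrays lie between 7.07 and 7.6.

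The effect of the agonist after brain death was examined by setting BD/SEW against BD. Of the 6 genes 0 were called by limma and 0 had an unadjusted p under 0.05, where 0.0141% of all genes were called. The 2 groups overlapped for all 6 genes by the brighter or only probe set of each, while 12.4% of all genes did not overlap. The other probe set of Agtr2, whose levels cannot be told from background, did not overlap (-0.18 ± 0.09). Ece1 differed by 0.013 ± 0.11 (interval -0.22 to 0.25), Agtr1a by -0.02 ± 0.15 (-0.34 to 0.3), Ace by -0.05 ± 0.23 (-0.56 to 0.46) and Edn1 by 0.11 ± 0.33 (-0.61 to 0.82; 95%, n = 3 per group). The interval was widest for Edn1 and narrowest for Ece1 among these 4. Agt differed by -0.45 ± 0.33, and by -0.005 without BD replicate 2.

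Brain death in animals that also had the agonist was examined by setting BD/SEW against SEW. Ece1 fell by 0.5 ± 0.11 (1.41-fold; n = 3 per group; adjusted p = 0.014 by limma), and it was the 1 gene of 6 called, where 9.79% of all genes were called, 5.04% lower and 4.75% higher. Agtr1a differed by -0.47 ± 0.15 (adjusted p = 0.07), Edn1 by -0.72 ± 0.33 (adjusted p = 0.2) and Ace by -0.57 ± 0.23 (adjusted p = 0.15), and none of these passed. The dimmer probe set of Ace fell by 0.61 ± 0.16 and passed over all 20826 probe sets (adjusted p = 0.038). The groups did not overlap for 5 of the 6 genes, the exception being Agt, and for 31.8% of all genes. Agtr2 was the 1 gene of these 5 that was higher in BD/SEW (0.14 ± 0.1). Its levels cannot be told from background, and its other probe set overlapped between the groups and differed by -0.053. The median difference of the 6 genes was -0.48, against -0.0067 over all genes.

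Leaving out each compared array in turn kept the call of Ece1 in 5 of 6 fits, and it had an adjusted p of 0.054 without BD/SEW replicate 3 (difference -0.47). With the cardiac covariate its difference was -0.5 (adjusted p = 0.021), and it was as large with the adipocyte covariate (-0.5, adjusted p = 0.02). Endothelial markers moved the same way in part. Their mean over 13 genes was 11.74 to 11.92 in SEW and 11.66 to 11.71 in BD/SEW, and 2 of the 13, the tight junction gene Cldn5 (-0.83 ± 0.13) and the transcription factor gene Sox17 (-0.88 ± 0.24), fell. The neutrophil mean over 7 markers was 9.33 to 10.98 in SEW and 11.49 to 11.98 in BD/SEW, and 3 of the 7 rose. The part of either cell type in the result was not tested.

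In BD/SEW against sham, Agt fell by 1.75 ± 0.33 (3.37-fold; adjusted p = 0.021 by limma, n = 3 per group), and it was the 1 gene of 6 called, where 2.87% of all genes were, 1.17% lower and 1.7% higher. Omitting each compared array in turn kept this call in 3 of 6 fits, and it was lost without sham replicate 1 (adjusted p = 0.077), BD/SEW replicate 1 (0.077) or BD/SEW replicate 2 (0.1). It was also lost with the cardiac covariate (-0.99, adjusted p = 0.32) and with the adipocyte covariate (-0.58, adjusted p = 0.57). With these covariates 0.0844% and 0.0141% of all genes were called, so the loss was not particular to Agt. The adipocyte mean was 6.46 to 7.19 in BD/SEW, and 4 of 12 adipocyte markers fell here. Agtr1a differed by -0.46 ± 0.15 (adjusted p = 0.13), Edn1 by -0.4 ± 0.33 and Ece1 by -0.24 ± 0.11 (adjusted p = 0.28). Ece1 and Agt did not overlap between these groups, and 25.9% of all genes did not. SEW against sham, BD against sham and BD/SEW against sham share the 3 sham arrays, so their values for Agt are not independent of each other.

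The interaction asks whether the difference with brain death was altered by the agonist, as BD/SEW less SEW, minus BD less sham. Of the 6 genes 0 were called by limma, where 0.95% of all genes were, and 2 had an unadjusted p under 0.05. These were Agt (1.42 ± 0.47, adjusted p = 0.23, n = 3 per group) and Ace (-0.73 ± 0.33, adjusted p = 0.39). Without BD replicate 2 that of Agt was 1.87 (adjusted p = 0.021), and with the cardiac or the adipocyte covariate it was 0.93 (adjusted p = 0.31) or 0.59 (adjusted p = 0.4). The median interaction was 1.97 over the adipocyte markers and 2.22 over the cardiac markers, against -0.02 over all genes. Without sham replicate 3 that of Ace was -0.38 (adjusted p = 0.39). For Ece1 the value was -0.25 ± 0.15 and for Agtr1a -0.03 ± 0.21, with intervals of -0.58 to 0.09 and -0.49 to 0.43 (95%). By the dimmer probe set of Agtr1a it was -0.4 ± 0.49 (-1.47 to 0.67).

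**Figure D3:**
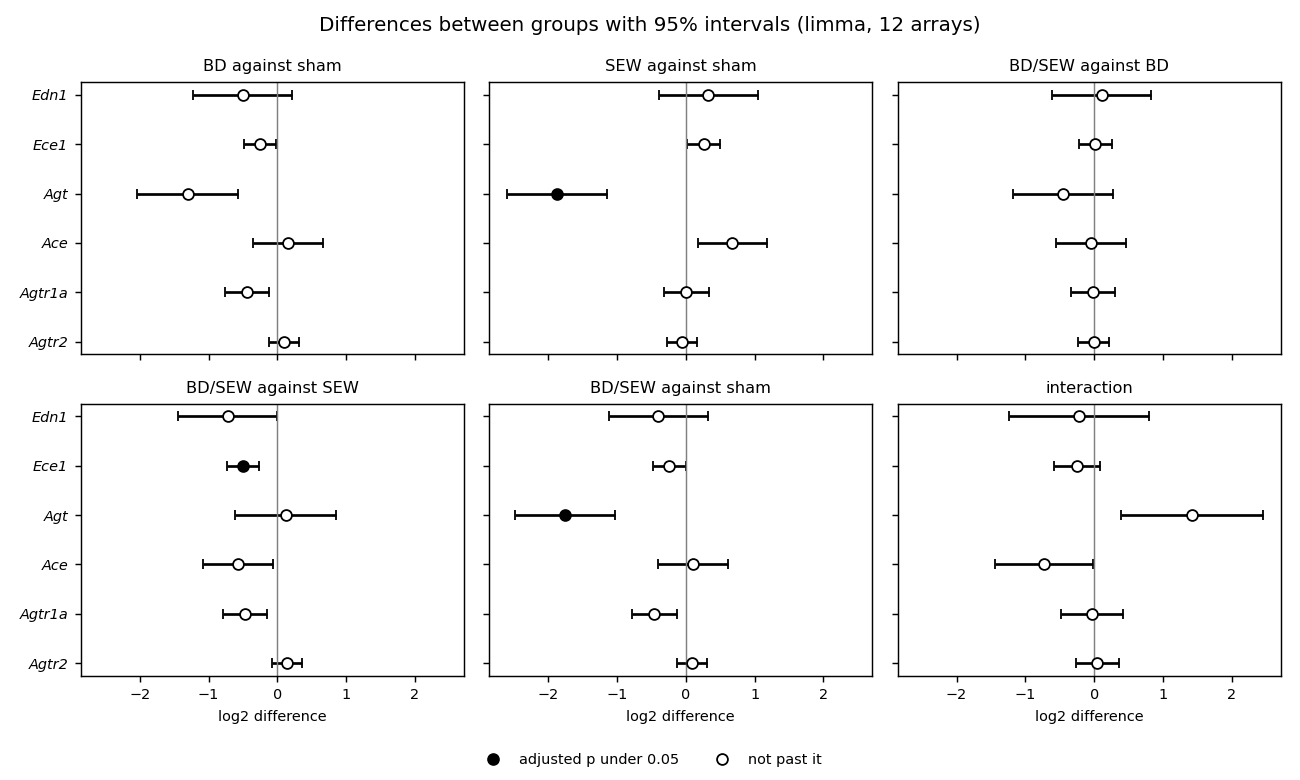
Log2 differences between groups (horizontal axis) with 95% intervals are plotted for the 6 genes (vertical axis), 1 panel per comparison, with filled points for an adjusted p under 0.05. Agt passed in SEW against sham (-1.87) and BD/SEW against sham (-1.75), Ece1 passed in BD/SEW against SEW (-0.5), and no point is filled in the other 3 panels.

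Other genes of the 2 systems were taken from lists written with earlier results of these data known. Of 9 listed endothelin genes outside the 8, 8 were measured. Ece2, which encodes a relative of endothelin converting enzyme, rose by 0.3 ± 0.09 in BD/SEW against SEW (n = 3 per group; adjusted p = 0.048 by limma), where 9.79% of all genes were called, 4.75% higher. It read 5.77, 5.72 and 5.75 in SEW and 6.07, 5.95 and 6.13 in BD/SEW, and it passed in 0 of 6 fits that each omitted an array. Its mean level lay at the percentile 19 of all genes, below that of Agtr2 (21.1), so it cannot be told from background either. With its probe sets averaged the difference was 0.18 (adjusted p = 0.15). The other 7, Edn2, Ecel1, Kel, Mme, Furin, Pcsk7 and Cpq, passed in none of the 6 comparisons by limma.

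Of 19 listed renin-angiotensin genes, 15 were measured and 1 was called, also in BD/SEW against SEW, a share below the 9.79% of all genes called there. Prep, which encodes prolyl endopeptidase, a protease that can cut angiotensins, fell by 0.36 ± 0.1 (adjusted p = 0.049 by limma, n = 3 per group). It read 9.12, 9.33 and 9.08 in SEW and 8.88, 8.73 and 8.84 in BD/SEW. It passed in 0 of 6 fits that each omitted an array, and its adjusted p was 0.071 with the replicate number as a block. Among those that did not pass, Enpep, the aminopeptidase that degrades angiotensin II, differed by 0.82 ± 0.23 in SEW against sham (adjusted p = 0.057). Agtrap, whose protein binds the AT1 receptor and lowers its signal, differed by -0.61 ± 0.17 there (adjusted p = 0.055).

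Of 21 listed genes of vascular tone outside both systems, 19 were measured. In BD/SEW against SEW 1 rose and 3 fell, where 4.75% of all genes were higher and 5.04% lower, and the list median was -0.083 against -0.0067 for all genes. Nos3, the endothelial nitric oxide synthase that relaxes vessels, read 8.2, 7.87 and 7.94 in SEW and 7.34, 6.65 and 6.86 in BD/SEW, and it fell by 1.05 ± 0.22 (adjusted p = 0.011 by limma, n = 3 per group; kept in 5 of 6 fits that each omitted an array). Apln, which encodes the vasodilator peptide apelin, fell by 1.05 ± 0.25 (adjusted p = 0.02). Npr3, the clearance receptor for natriuretic peptides, fell by 1.03 ± 0.28 (adjusted p = 0.041). Apln and Npr3 were each kept in 2 of those 6 fits, and Npr3 lost its call with either covariate (adjusted p = 0.054 and 0.053). With the compared arrays only, Apln and Npr3 lost their calls (adjusted p = 0.075 and 0.098), where 8.12% of all genes were called.

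Adora2a, which encodes an adenosine receptor, was the gene of this list with the largest differences. It read 10.12, 10.41 and 10.4 in sham, 9.19, 9.63 and 10.11 in BD, 7.03, 9.37 and 6.59 in SEW, and 10.39, 10.36 and 9.88 in BD/SEW. SEW replicates 1 and 3 were far below all other arrays, and SEW replicate 2 lay within the range of BD. Neutrophil markers were low on the same arrays: their mean read 9.33, 10.98 and 9.54 on the SEW arrays, 10.02 to 11.15 in sham and 11.49 to 11.98 in BD/SEW. Adora2a is also known in leukocytes, and the part of these cells in its values was not tested. Adora2a fell by 2.65 ± 0.55 in SEW against sham (adjusted p = 0.023 by limma, n = 3 per group), and rose by 2.55 ± 0.55 in BD/SEW against SEW (adjusted p = 0.013). The first call was kept in 2 of 6 fits that each omitted an array, and the second was kept in 4. The first was lost with either covariate (adjusted p = 0.23 and 0.28), where 0.169% and 0.0633% of all genes were called. With the compared arrays only, both were lost (adjusted p = 0.11 and 0.062), where 1.81% and 8.12% of all genes were called. Its interaction was 3.21 ± 0.78 (adjusted p = 0.09), and did not pass. Of the 12 fits that each omitted an array it passed in 1, without SEW replicate 2 (4.07, adjusted p = 0.00033). It also passed with array weights (3.92, adjusted p = 0.0025 by limma), where 3.26% of all genes were called. Without sham replicate 3 and replicate 2 of BD and of SEW it passed too (4.015, adjusted p = 0.0029), where 2.94% were called.

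**Figure D4:**
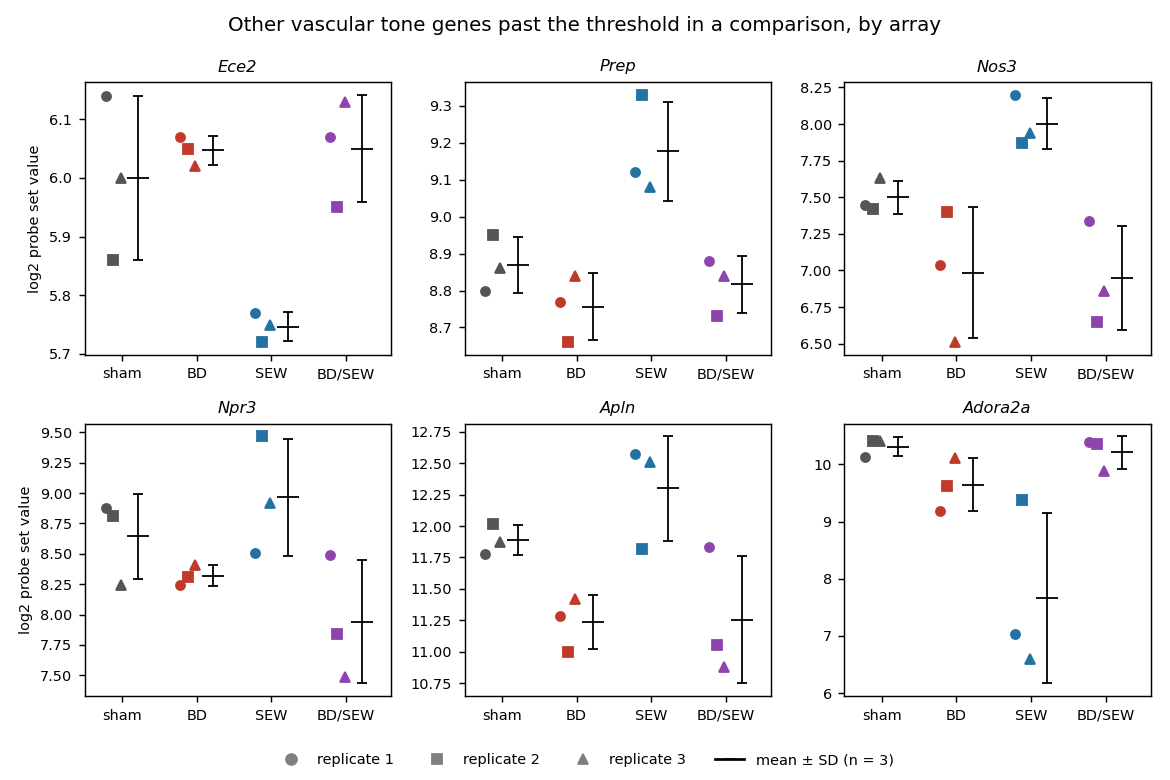
The log2 probe set value (vertical axis) is plotted by group (horizontal axis) for the 6 other genes of the lists that passed in a comparison, 1 symbol per array, with the mean ± SD of 3 arrays. Nos3, Npr3, Apln and Prep are lower in BD/SEW than in SEW, Ece2 and Adora2a are higher, and SEW replicate 2 (9.37) stands apart from the other SEW arrays in Adora2a.

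The genes most like each member were found by Pearson's r over the 12 arrays among 10661 other genes, as a description with no test, since the best of so many is high in any data. The arrays share 4 groups, so likeness holds differences between groups. For Ece1 they were Atoh8 (r = 0.96, rho = 0.88), Wnt4 (0.95, 0.97) and Gls2 (0.94, 0.91). For Ace they were Eef1g (0.97, 0.96), Kdelr2 (0.97, 0.92) and Pik3c3 (0.95, 0.86). For Edn1 they were Ercc4 (0.94, 0.97), Srpx (0.93, 0.95) and Slc35b3 (0.93, 0.9), and for Agtr1a Aldh18a1 (0.95, 0.89), Ret (0.94, 0.96) and Got1 (0.9, 0.92). For Agt the 3 were all adipocyte markers, Thrsp (0.98, 0.74), Cidec (0.97, 0.81) and Plin4 (0.97, 0.79). Over the 8 arrays other than sham and BD replicate 2, r was 0.6 for Thrsp, 0.37 for Cidec and 0.54 for Plin4, and rho was 0.19, 0.36 and 0.36.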

How the data were processed

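Values were read from the series' table of log2 probe set values on 12 Affymetrix arrays, as deposited by the authors. Per the submitters' processing notes, MAS5, RMA and affy were used, with no version or role; other upstream steps are not given in the sources used here. The arrays differed by at most 0.22 at any rank. The number of arrays limits the precision.

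Symbols came from the platform annotation, and 1 of them was given to 20826 of 31042 probe sets. Of several probe sets of a gene, the one with the highest mean was used, leaving 14217 genes. limma 3.58.1 in R 4.3.3 fitted a mean per group over all 12 arrays, with variances moderated along a mean trend, two-sided tests and Benjamini-Hochberg adjustment. The procedure was tested on simulated data.

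The members, gene lists, marker lists and tests were chosen with earlier results of these data known. Named are all members, each list gene called in a comparison, and the 3 genes most like each member that is above the 25th percentile of mean level; list genes outside this rule were named after their values were seen. Alternatives were other fits, probe set rules, filters, covariates and omitted arrays. Promoters came from RefSeq, build GRCr8, which held 7 of the 8 genes.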

Additional observations from a re-analysis of the deposited data

How the results depend on the processing

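The number of the 6 genes called was recomputed under each alternative, none of which reversed a called difference. Of 672 recomputed differences of the 6 genes, 646 kept their side of the threshold, 11 lost a call and 15 gained one. Only differences called in the main fit could lose a call. These were Agt in SEW against sham and in BD/SEW against sham, and Ece1 in BD/SEW against SEW. Most of the 646 were therefore differences not called in the main fit or in the alternative, so that number does not measure how steady the calls were. For BD against sham the count of 0 became 1 with array weights and 1 without the 3 arrays named apart in the report (sham replicate 3, with replicate 2 of BD and of SEW), Agt in both cases. The share of all genes called went from 0.591% to 2.69% and 3.51% in these settings. For SEW against sham the count of 1 became 0 with the cardiac covariate, 0 with the adipocyte covariate (chosen after seeing the data) and 0 at an adjusted p under 0.01. Here the all-gene share went from 5.84% to 0.169%, 0.0633% and 0.767%. For BD/SEW against SEW the count of 1 became 3 with the compared arrays only (Edn1, Ece1, Ace), 3 with array weights (Ece1, Ace, Agtr1a), 2 without the 3 arrays (Ece1, Ace) and 0 at an adjusted p under 0.01. The all-gene share went from 9.79% to 8.12%, 17.6%, 12.6% and 4.42%. For BD/SEW against sham the count of 1 became 4 with array weights, 2 without the 3 arrays (Edn1, Agt), and 0 with the cardiac covariate, 0 with the adipocyte covariate and 0 at an adjusted p under 0.01. The all-gene share went from 2.87% to 18.9%, 8.16%, 0.0844%, 0.0141% and 0.626%. For the interaction the count of 0 became 1 without the 3 arrays (Agt), and the all-gene share went from 0.95% to 2.94%.

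With 1 compared array left out, the counts ran from 0 to 1 for BD against sham, from 1 to 1 for SEW against sham, from 0 to 0 for BD/SEW against BD, from 0 to 2 for BD/SEW against SEW, from 0 to 1 for BD/SEW against sham and from 0 to 1 for the interaction. In the same order, the all-gene share ran from 0.183% to 1.6%, 2.26% to 3.9% and 0.00703% to 0.0352%. For the last 3 it ran from 5.56% to 9.57%, 0.64% to 2.26% and 0.267% to 1.65%. The cause of these changes was not tested. With the replicate number as a block, the counts were 0, 1, 0, 1, 1 and 0 in the same order of comparisons, as without it. The all-gene shares with the block were 0.485%, 7.16%, 0.0211%, 10.6%, 3.04% and 1.03%. Of 18 same-numbered pairs of arrays, 8 had deviations correlated above 0.1 (from -0.19 to 0.38). Differently numbered pairs from different groups ran from -0.43 to 0.29. Of 12 arrays, 9 correlated best with one of their own number. The labels do not say what the numbers stand for, and the main fit did not pair the arrays. A structure shared by arrays of the same number was not tested beyond the block.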

Other observations

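Mast cells carry proteases that can make angiotensin II outside the classical pathway, and their genes were measured as a list of 6. Of these, 0 were called in any of the 6 comparisons by limma, Cma1 (chymase) and Cpa3 (carboxypeptidase A3) among them, and the list mean was 6.17 to 6.5 on all 12 arrays. Over all genes 0.0141% to 9.79% were called, by comparison, so a list of 6 with 0 called is not unusual. Cpa3 differed by -0.35 ± 0.17 in BD/SEW against SEW (n = 3 per group, adjusted p = 0.25 by limma). The mean levels of Cma1 and Cpa3 lay at the percentiles 21.1 and 21.5 of all genes, near that of Agtr2 (21.1). Their levels cannot be told from background either.

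The muscle cells of the vessel wall, on which both peptides act, were followed through 12 smooth muscle markers. Of these, 0 were called in any of the 6 comparisons by limma, with list means of 10.21 to 10.34 in sham, 10.27 to 10.43 in BD, 9.84 to 10.5 in SEW and 10.1 to 10.2 in BD/SEW. The share of all genes called ran from 0.0141% to 9.79% across the comparisons, so few calls were to be had from a list of this size. Of 9 pericyte markers 1, Higd1b, rose in SEW against sham (0.57 ± 0.1, adjusted p = 0.013 by limma, n = 3 per group). In that comparison 5.84% of all genes were called, 3.4% higher.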
